A study of Homo sapiens with 6 samples.

Results

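The transcripts of 41 genes that build and maintain the Z-disc, the titin filament and the M-band were measured in human cardiomyocytes exposed to alcohol, with and without losartan. The genes were taken from a list of sarcomere structure genes that leaves out the muscle myosin chains, troponins, tropomyosins and actins. It does hold MYH14, a nonmuscle myosin heavy chain. The genes were matched by symbol among the 21134 genes of the deposited table. All 41 were listed, and 40 of them passed the filter on low counts and were tested.

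The sarcomere is the contractile unit of striated muscle. Thin filaments of actin are anchored at the Z-disc, where alpha-actinin crosslinks them, and thick filaments of myosin are held together at the M-band by the myomesins. Titin spans from the Z-disc to the M-band, centres the thick filament and acts as a spring, and several LIM-domain proteins, chaperones and ubiquitin ligases at the Z-disc and along titin take part in strain sensing and protein turnover. In the heart, mutations in many of these genes are known causes of cardiomyopathy.

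The 6 libraries formed 3 groups of 2. The control cells are labelled as control, with no dose of alcohol or losartan given. The alcohol cells had 100 mM alcohol for 24 h. The co-treated cells had the same alcohol together with 1 μM losartan, a blocker of the angiotensin II type 1 receptor, for 24 h. By the labels these are hiPSC-CMs of the H9 line, although H9 is an established line of human embryonic stem cells. All groups come from that 1 line, and no group had losartan without alcohol. The labels number the libraries of a group but do not say that they came from separate cultures, so the p-values measure the spread between these libraries, which may be technical.

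The expected counts (estimates of the reads per gene made by the authors) summed to between 4898287 and 5051448 per library. A count of 0 therefore allows a true level of 3 counts, or 0.594 to 0.612 CPM (counts scaled to the library total). Cardiomyocyte markers were present, with 15 of 15 at 1 FPKM or more in every library (FPKM is the count scaled to gene length and library). Their summed FPKM was 28440 and 28140 in control, 27610 and 21120 in alcohol, and 23770 and 25990 in the co-treated cells. All 4 exposed libraries were below both controls in this sum, much of which was MYL7 (14512 and 16180 in control, 9321 to 12612 exposed). The median of the 15 markers overlapped, at 349 and 513 in control and 371 to 433 in the exposed libraries. MYL7, MYL3 and TNNT2 were lower in all 4 exposed libraries than in both controls, PLN and RYR2 were higher, and the others overlapped. The 6 smooth muscle markers were also present, each at 1 FPKM or more in every library. Their summed FPKM was 1998 and 1762 in control, 1519 and 797 in alcohol, and 1062 and 1103 in the co-treated cells. TAGLN, ACTA2 and MYH11 were lower in all 4 exposed libraries than in both controls, while CNN1, SMTN and MYOCD overlapped. The 9 fibroblast markers summed to between 422 and 518 and the 6 pluripotency markers to between 10.5 and 19.6. The 5 endothelial markers summed to 6.86 and 5.88 in control and to between 7.43 and 10.5 in the 4 exposed libraries, and the 7 endoderm markers to 40.2 and 38.5 in control and to between 49.3 and 51.5 in the exposed ones. Of the endothelial markers, only KDR was higher in all 4 exposed libraries than in both controls. Of the endoderm markers, AFP, APOA1, TTR and SERPINA1 were, while ALB, FOXA2 and SOX17 were not. Of 10 skeletal muscle markers 7 were listed, and apart from CKM, which the heart also expresses, each stood at 3.81 FPKM or lower. In RNA from a whole culture, fewer cells of a type and less RNA per cell cannot be told apart.

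The promoters of 3 genes are shown because these genes lie among those with the smallest p-values and hold a match to the binding sequence of MEF2, a transcription factor that drives many muscle structure genes. KLHL41 stood higher in the alcohol-exposed cells, and SYNPO2L and XIRP1 stood lower in the co-treated cells. The 3 genes were chosen after the values were seen. PDLIM3, LMOD2, MYPN and CMYA5, also with small p-values, held no MEF2 match in the same search. FHL2, MYOZ1 and MYOM3, each with a small p-value and a match, are not shown. Each line gives the 250 bases before the annotated start in RefSeq (GRCh38.p14), read 5′ to 3′ on the strand of the gene, with the MEF2 match in capitals.
KLHL41 (chr2:169509452-169509701, plus strand): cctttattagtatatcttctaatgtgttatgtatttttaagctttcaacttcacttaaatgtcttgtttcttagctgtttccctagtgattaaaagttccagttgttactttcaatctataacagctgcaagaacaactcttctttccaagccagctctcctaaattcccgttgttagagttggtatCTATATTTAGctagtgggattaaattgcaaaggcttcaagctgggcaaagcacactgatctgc
SYNPO2L (chr10:73656030-73656279, minus strand): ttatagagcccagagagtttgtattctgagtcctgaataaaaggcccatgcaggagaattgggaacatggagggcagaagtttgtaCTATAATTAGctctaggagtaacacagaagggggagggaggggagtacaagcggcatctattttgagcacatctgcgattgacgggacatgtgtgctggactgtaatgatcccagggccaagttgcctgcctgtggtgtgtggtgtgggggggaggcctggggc
XIRP1 (chr3:39192596-39192845, minus strand): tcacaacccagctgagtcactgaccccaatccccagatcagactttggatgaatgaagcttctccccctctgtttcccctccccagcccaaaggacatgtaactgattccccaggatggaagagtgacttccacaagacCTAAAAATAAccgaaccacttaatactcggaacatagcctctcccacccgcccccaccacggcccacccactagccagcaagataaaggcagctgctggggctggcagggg
The match began 63 bases before the start in KLHL41, 164 bases before it in SYNPO2L and 111 bases before it in XIRP1.

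Of the 41 genes, 34 had an entry in the promoter table, with 58 promoters among them. Both strands of the 250 bases were searched, and matches of different motifs were allowed to overlap. A MEF2 site was found in 11 of the 58 promoters (19.0%), which belong to 10 genes, against 2.80% of all 35116 promoters. These genes were FHL2, KLHL41, MYBPC3, MYOM3, MYOZ1, MYOZ2, SYNPO2L, TTN, XIRP1 and XIRP2. A CArG box, the sequence bound by serum response factor, was found in 7 promoters (12.1%) against 1.16% of all, and these belong to FHL1, FHL2, LDB3 and MYOM1. The TEAD motif M-CAT (CATTCC) was found in 13.8% against 11.9%, the GATA motif TGATAA in 10.3% against 6.66%, the TATA box (TATAAA) in 19.0% against 10.7%, and the E-box (CANNTG) in 74.1% against 61.8%. Several promoters can belong to 1 gene, and a match is a description of the sequence.

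The levels spanned more than 3 orders of magnitude. By mean FPKM in control, 21 of the 41 genes stood at 100 or more and 6 stood under 2. The 10 highest were CSRP3, CRYAB, MYBPC3, ACTN2, TCAP, DES, LDB3, SMYD1, FHL1 and FHL2, and CSRP3 was number 64 among all genes. The lowest were MYH14, XIRP2, MYOM2, MYOM3, NEB and ANKRD2. NEB and MYOZ1, known mainly from skeletal muscle, stood far below their heart counterparts. NEB (nebulin, which sets thin filament length in skeletal muscle) was at 0.27 to 0.59 FPKM, while NEBL (nebulette, its short heart relative) was at 210 to 265. MYOZ1, the calsarcin of fast skeletal muscle, was at 16.6 to 23.8, while MYOZ2, the cardiac calsarcin, was at 154 to 197. ANKRD2, a strain-linked ankyrin repeat protein, had 5 and 0 counts in control, 1 and 0 in alcohol and 1 and 0 in the co-treated cells, and was left out of the test.

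**Figure D1:**
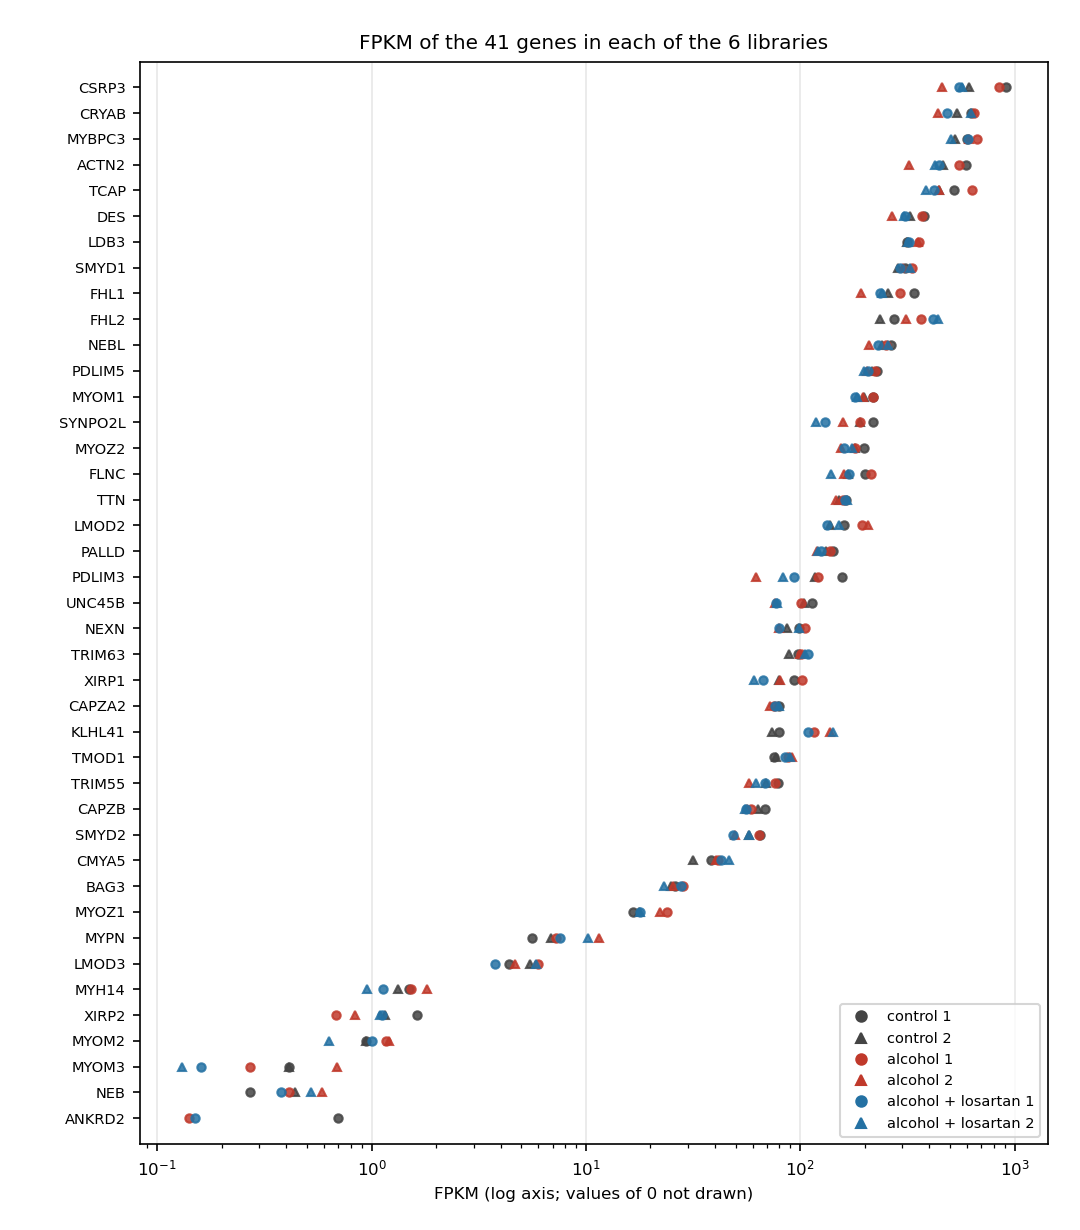
FPKM (log axis) of the 41 genes in each library, ordered by the mean in control, with a colour for each group and a shape for each replicate. CSRP3 stands at the top with 458 to 916 FPKM, the 6 genes at the bottom stay under 2, and the libraries of a gene mostly lie close together relative to the distance between genes.

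Together the 41 genes took 3.77% and 3.33% of all counts in the control libraries, 3.70% and 3.18% in the alcohol libraries, and 3.37% and 3.36% in the co-treated libraries. The control and alcohol libraries overlapped, and each replicate 1 of these groups was above its replicate 2. TTN alone took 1.03% to 1.15% of all counts, which is 28.5% to 33.9% of the counts of these genes. In FPKM, alcohol replicate 2 was the lowest of the 6 libraries for 13 of the genes and co-treated replicate 2 for 11. Control replicate 1 was the highest for 17 and alcohol replicate 1 for 12. The same was not counted over all genes, so these counts may belong to the libraries at large. Alcohol replicate 2 also had the lowest cardiomyocyte and smooth muscle marker sums and control replicate 1 the highest. The part of these sums in the results was not tested.

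The first question was whether alcohol changed these transcripts. KLHL41, a kelch-repeat protein that stabilises sarcomere proteins, had 80.0 and 74.2 FPKM in control and 116 and 138 in alcohol, so that both alcohol libraries were above both control libraries. Its log2 fold change was 0.68 ± 0.15 (SE, n = 2 against 2), and edgeR's adjusted p was 0.113. No gene of the 40 passed the threshold in edgeR (adjusted p under 0.05 by Benjamini-Hochberg over the 14926 genes tested), while 0.0670% of all genes did. At an unadjusted p under 0.05, 7 of the 40 (17.5%) were found, against 11.0% of all genes. The 5 higher ones were KLHL41, MYPN, LMOD2, MYOZ1 and FHL2, against 5.27% of all genes, and the 2 lower ones were PDLIM3 and UNC45B, against 5.78%. DESeq2 called 1, KLHL41, and limma on FPKM called 0. The median log2 fold change of the 40 genes was -0.03, against -0.0033 over all genes tested, and 19 were higher and 21 lower. In CPM scaled by TMM, both alcohol libraries were above both control libraries for 9 genes (22.5%, against 22.0% of all genes) and below them for 4 (10.0%, against 21.8%). Without alcohol replicate 1 the median was -0.18 and 3 of these genes were called (ACTN2, KLHL41 and PDLIM3), with 220 called among all genes in place of 10. Without alcohol replicate 2 the median was 0.14 and 0 were called, with 1 among all genes, so the direction of the median differed with the library left out. It was 0.09 without control replicate 1. The smooth muscle and cardiomyocyte marker sums given above were lower in both alcohol libraries than in both controls and the endothelial and endoderm sums higher. Single markers did not all move with their sum, and whether the sums bear on the values was not tested.

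The second question was whether losartan added to alcohol changed them. SYNPO2L, a Z-disc protein that binds alpha-actinin and actin, had 191 and 158 FPKM in alcohol and 131 and 119 in the co-treated cells. Both co-treated libraries were lower, and the log2 fold change was -0.49 ± 0.14 (SE, n = 2 against 2) with an adjusted p of 0.722 in edgeR. By edgeR 0 of the 40 genes were called, against 0.0134% of all genes, and DESeq2 and limma called 0 as well. At an unadjusted p under 0.05, 8 of the 40 (20.0%) were found, against 5.55% of all genes. FHL2 was the 1 higher gene among these, which compares with 2.84% of all genes that were higher, and the 7 lower ones were MYOM3, MYH14, XIRP1, LMOD2, SYNPO2L, TCAP and MYOZ1, which compares with 2.71%. The median log2 fold change was -0.08 against 0.0023 over all genes, with 8 higher and 32 lower. Both co-treated libraries were above both alcohol libraries in CPM for 3 genes (7.50%, against 17.4% of all genes) and below them for 11 (27.5%, against 16.2%). Without alcohol replicate 2 the median was -0.28, and without alcohol replicate 1 it was 0.034.

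The co-treated cells were then set against the control cells. SYNPO2L fell in this comparison. Its FPKM was 219 and 191 in control and 131 and 119 in the co-treated cells, with a log2 fold change of -0.76 ± 0.14 (SE, n = 2 against 2), which is 0.590 of the control level, and an adjusted p of 0.0445 in edgeR. It was the 1 gene of the 40 called, against 0.362% of all genes, and the call was lost when any control or co-treated library was left out. Without these libraries in turn the log2 fold change was -0.65 (control replicate 1), -0.87 (control replicate 2), -0.81 (co-treated replicate 1) and -0.71 (co-treated replicate 2), and the adjusted p was 0.195, 0.0730, 0.157 and 0.361. It was also lost with limma on log2(FPKM + 1) and log2(FPKM + 0.1), with adjusted p of 0.207 and 0.194, and without the filter on low counts, at 0.0799. At an unadjusted p under 0.05, 10 of the 40 (25.0%) were found, against 12.6% of all genes. The 4 higher ones were FHL2, KLHL41, MYPN and CMYA5, against 6.26% of all genes, and the 6 lower ones were SYNPO2L, PDLIM3, UNC45B, XIRP1, CAPZB and MYOM3, against 6.37%. The median log2 fold change was -0.20 against -0.0017 over all genes, and 32 were lower and 8 higher. In 19 of the 40 genes (47.5%) both co-treated libraries were below both control libraries in CPM scaled by TMM, against 21.7% of all genes. In 6 genes (15.0%) both were above, against 21.6%. The smooth muscle and cardiomyocyte marker sums were also lower in both co-treated libraries than in both control libraries, and the endothelial and endoderm sums higher. Not every marker moved with its sum, and the part of the sums in these counts was not tested.

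Finally, all 4 alcohol-exposed libraries were set against the 2 control libraries. KLHL41 rose, with 108 and 143 FPKM in the co-treated cells beside the alcohol values given above. The mean log2 fold change of both exposed groups was 0.67 ± 0.13 (SE, n = 4 against 2), or 1.59-fold, with an adjusted p of 0.0434 in edgeR. It was the 1 gene of the 40 called, against 0.556% of all genes, and at an unadjusted p under 0.05 there were 7 of 40 (17.5%) against 13.5% of all genes. The 3 higher ones were KLHL41, FHL2 and MYPN (6.48% of all genes) and the 4 lower ones SYNPO2L, PDLIM3, UNC45B and CAPZB (7.05%). The call was lost without control replicate 1 (log2 fold change 0.75, adjusted p 0.0868), control replicate 2 (0.61, 0.256), alcohol replicate 2 (0.62, 0.0757), co-treated replicate 1 (0.77, 0.0658) or co-treated replicate 2 (0.55, 0.134), all by edgeR, and was kept without alcohol replicate 1. It was also lost with limma (0.195 and 0.173) and without the filter on low counts (0.0829). Without alcohol replicate 1 the number called was 8, with ACTN2, CSRP3, FHL1, FHL2, PDLIM3, SYNPO2L and UNC45B beside KLHL41, and the number among all genes was 407 in place of 83. Without alcohol replicate 2 it was 1, FHL2, and 57 among all genes. In CPM, FHL2, KLHL41, MYPN and TMOD1 (10.0% of the 40) were above both control libraries in all 4 exposed libraries, against 11.8% of all genes. CAPZB and UNC45B (5.00%) were below both in all 4, against 11.3% of all genes. The smooth muscle and cardiomyocyte marker sums were lower and the endothelial and endoderm sums higher in all 4 exposed libraries than in both controls. Many single markers overlapped or moved against their sum, as given above, and the part of the sums was not tested. These comparisons share libraries and are therefore not independent of each other.

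**Figure D2:**
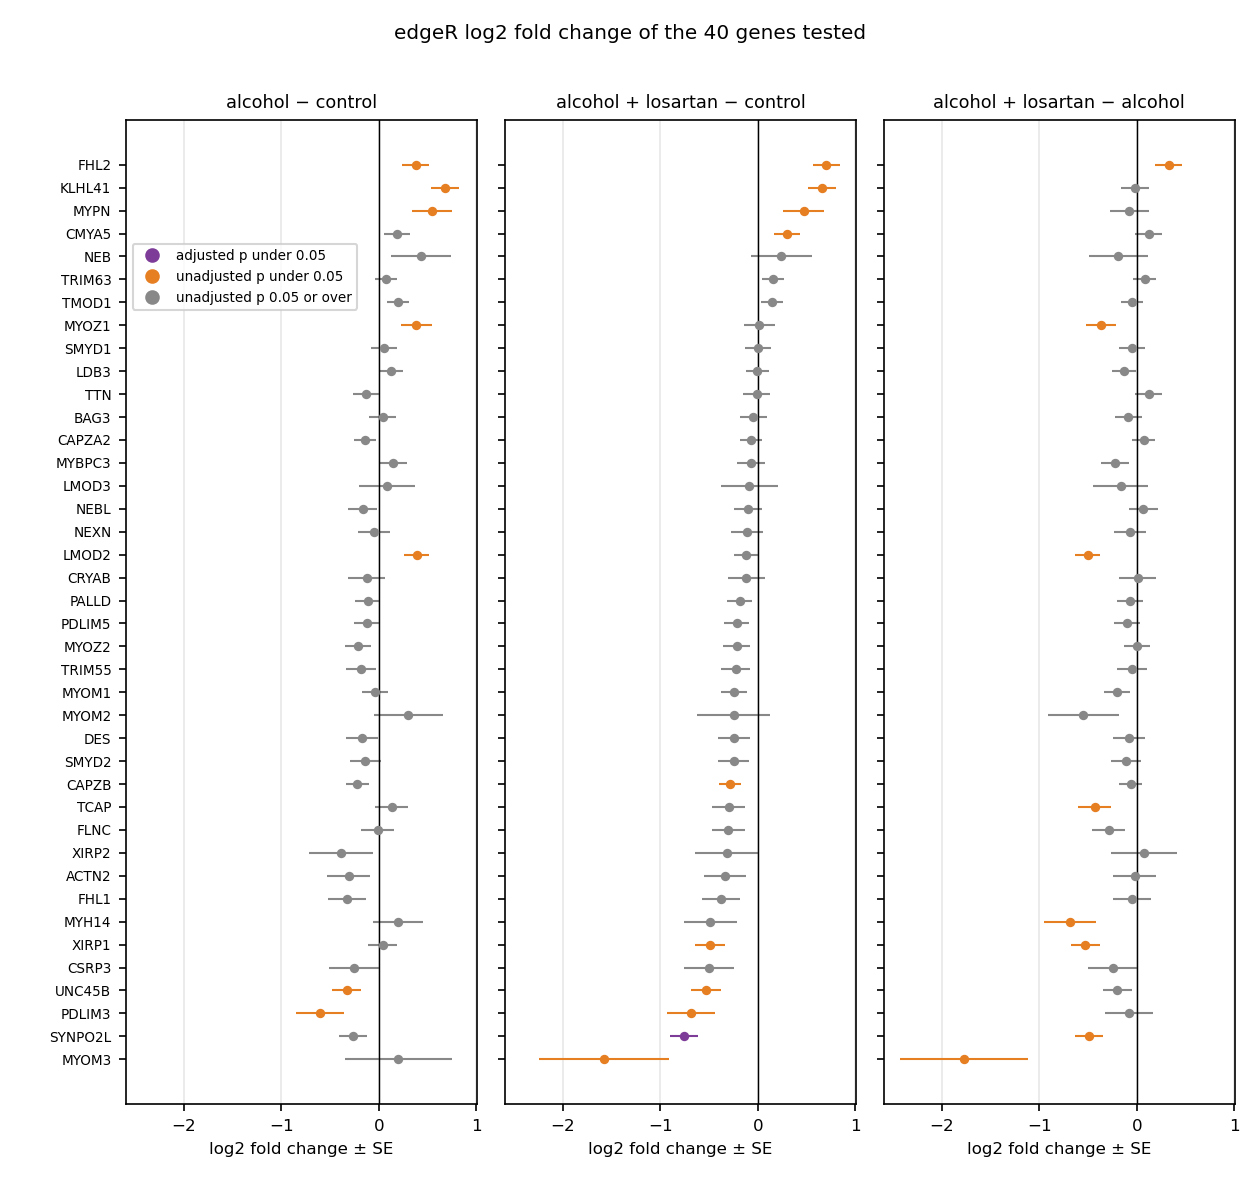
edgeR log2 fold change (x axis) with its SE for the 40 genes tested, ordered by the co-treated against control comparison, with 1 panel per comparison. The purple point is the adjusted call of SYNPO2L at -0.76, and orange points had an unadjusted p under 0.05. Most points lie within 0.5 of 0, and MYOM3 in both co-treated panels is set apart by a large estimate with a large SE.

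No gene of titin and the myosin filament passed the test. TTN, the giant spring protein, had 164 and 151 FPKM in control, 159 and 148 in alcohol, and 162 and 166 in the co-treated cells. In FPKM the control libraries overlapped those of both other groups, while in CPM, which does not use length, both alcohol libraries were below both control libraries. The log2 fold change in edgeR was -0.13 ± 0.14 in alcohol against control (adjusted p = 0.782) and -0.01 ± 0.14 in the co-treated cells against control (adjusted p = 0.980). Over the alternatives the alcohol value ranged from -0.19 to -0.04. The deposited length of TTN, for which 7 transcripts are listed, was 69266 and 69759 bases in control, 65296 and 68774 in alcohol, and 69215 and 67549 in the co-treated cells, and all 4 exposed libraries were below both control libraries, with alcohol replicate 1 the lowest. The span of TTN overlaps that of the antisense gene TTN-AS1, which had up to 2674 counts. Reads from bases that transcripts of both genes share could not be told apart if strand was not used. Whether the transcripts share any bases was not checked. Gene spans also overlap for LMOD3 with ARL6IP5 (up to 1869 counts), TMOD1 with TSTD2 (752), NEB with RIF1 (459), PALLD with CBR4 (239), FHL2 with C2orf49 (200) and NEXN with NEXN-AS1 (84.8). MYBPC3, the myosin-binding protein C of the heart, had 599 and 530 FPKM in control, 670 and 615 in alcohol, and 604 and 506 in the co-treated cells. It did not pass the test in any comparison (log2 fold change 0.15 ± 0.14 in alcohol, adjusted p = 0.767 by edgeR).

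At the M-band, MYOM1 (myomesin, the main crosslinker of thick filaments) was the 1 gene of 3 at a high level, with 180 to 219 FPKM. MYOM2, a myomesin of adult heart and fast muscle, was at 0.63 to 1.21. MYOM3 had 0.41 and 0.41 FPKM in control, 0.27 and 0.69 in alcohol, and 0.16 and 0.13 in the co-treated cells. Both co-treated libraries were the lowest, but they rest on 4.46 and 3.94 counts, and the control libraries on 12.1 and 12.2. The log2 fold change was -1.78 ± 0.66 against alcohol and -1.58 ± 0.67 against control, with adjusted p of 0.857 and 0.343 in edgeR.

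Among the 14 scaffold genes of the Z-disc, 12 had a lower estimate in the co-treated cells than in control, with a median of -0.22. This was close to the 40 genes as a whole, of which 32 were lower, with a median of -0.20. Over all genes tested 7497 of 14926 were lower. CSRP3, the muscle LIM protein, had 916 and 612 FPKM in control, 849 and 458 in alcohol, and 551 and 566 in the co-treated cells. Its replicates in control and in alcohol differed more than the group means, and its log2 fold change in the co-treated cells was -0.50 ± 0.25 (adjusted p = 0.440, edgeR). ACTN2, the alpha-actinin that crosslinks thin filaments, had 595 and 464 FPKM in control, 548 and 323 in alcohol, and 443 and 425 in the co-treated cells. Here too alcohol replicate 2 was the lowest library, and the log2 fold change was -0.31 ± 0.22 in alcohol and -0.34 ± 0.22 in the co-treated cells (adjusted p 0.662 and 0.574).

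TCAP, which caps the end of titin in the Z-disc, had 520 and 442 FPKM in control, 633 and 446 in alcohol, and 421 and 386 in the co-treated cells. Both co-treated libraries were below the other 4, with -0.43 ± 0.17 against alcohol (adjusted p = 0.857, edgeR). Leaving out alcohol replicate 1 gave -0.12 there, and leaving out alcohol replicate 2 gave -0.70. LDB3, also known as cypher or ZASP, had 316 and 313 in control, 359 and 353 in alcohol, and 323 and 318 in the co-treated cells. The alcohol libraries were the highest pair, with close replicates, and the log2 fold change was 0.13 ± 0.12 (adjusted p = 0.771).

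SYNPO2L showed the order control, alcohol, co-treated in FPKM, with alcohol replicate 1, at 191.0, only just above control replicate 2, at 190.6. PDLIM3, a PDZ and LIM protein that binds alpha-actinin, had 157 and 117 FPKM in control, 121 and 62.2 in alcohol, and 93.3 and 83.1 in the co-treated cells. The alcohol replicates were further apart than the means of any 2 groups. The log2 fold change was -0.60 ± 0.25 in alcohol and -0.68 ± 0.25 in the co-treated cells (adjusted p 0.391 and 0.265 by edgeR). Without alcohol replicate 1 the alcohol value was -1.21 (adjusted p = 0.00495), and without alcohol replicate 2 it was -0.17. The smooth muscle marker sum was also lowest in alcohol replicate 2, at 797, and its part in PDLIM3 was not tested.

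MYPN, myopalladin, links alpha-actinin to nebulin-like proteins. It had 5.62 and 6.85 FPKM in control, 7.27 and 11.6 in alcohol, and 7.60 and 10.2 in the co-treated cells. All 4 exposed libraries were above both control libraries, with log2 fold changes of 0.55 ± 0.21 and 0.47 ± 0.21 (adjusted p 0.345 and 0.374). The alcohol value became 0.82 when alcohol replicate 1 was left out and 0.22 when replicate 2 was. MYOZ1 had 16.6 and 17.7 FPKM in control, 23.8 and 22.1 in alcohol, and 17.8 and 18.0 in the co-treated cells. The alcohol libraries stood above the other 4, with 0.38 ± 0.16 against control and -0.37 ± 0.16 in the co-treated cells against alcohol (adjusted p 0.397 and 0.887). The other scaffold genes, MYOZ2, PALLD, NEXN, FLNC, PDLIM5 and NEBL, had no unadjusted p under 0.05 in any comparison.

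**Figure D3:**
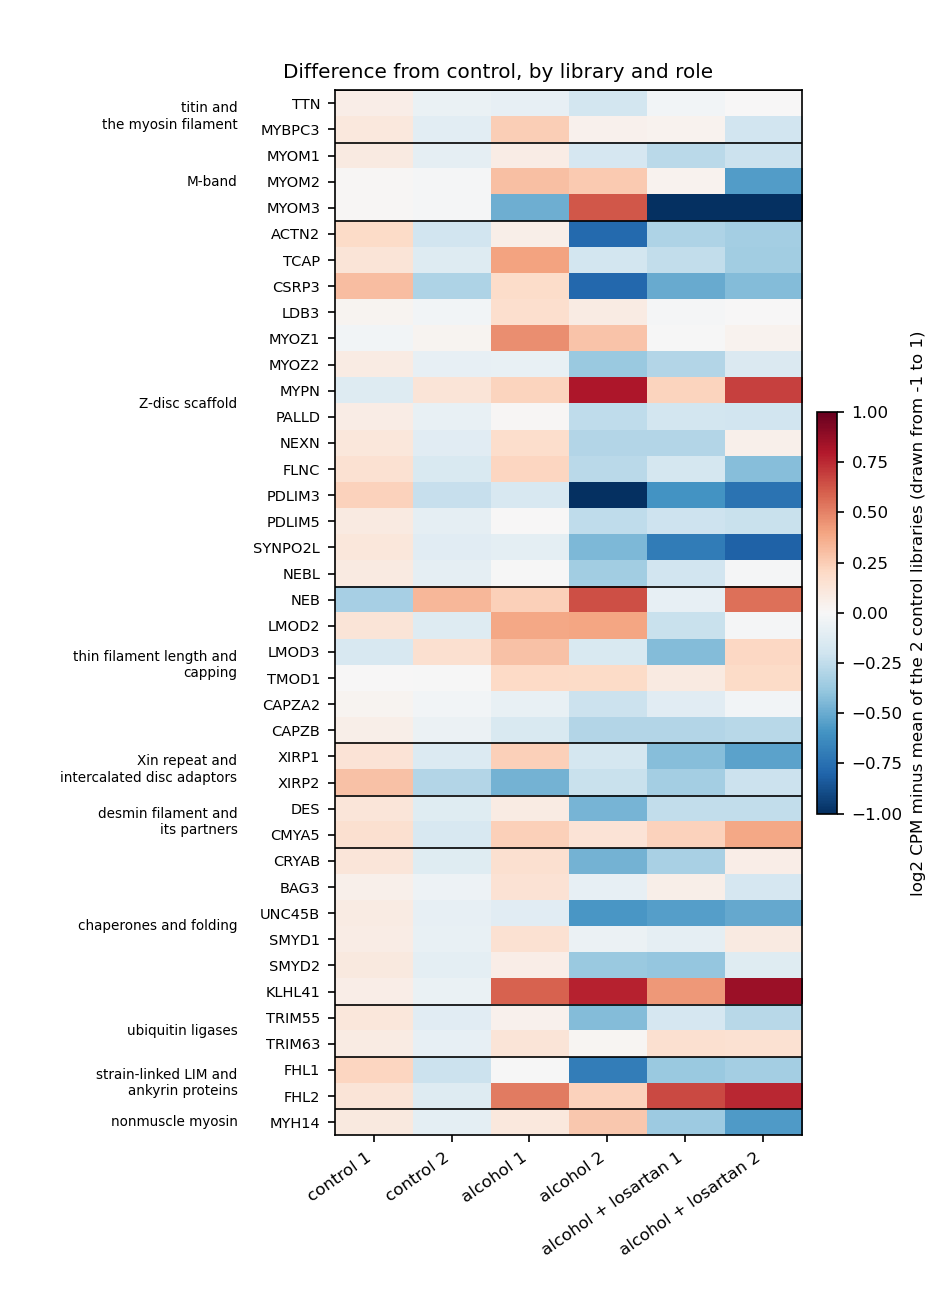
Log2 CPM of the 40 genes tested in each library minus the mean of the 2 control libraries, grouped by role, with the colour scale ending at -1 and 1. Red marks higher and blue marks lower values. The rows of KLHL41, FHL2 and MYPN are red in all 4 exposed libraries, that of UNC45B is blue in them, and alcohol replicate 2 differs from alcohol replicate 1 in rows such as ACTN2, CSRP3, PDLIM3 and FHL1.

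Of the 6 genes that set the ends and length of the thin filaments, 4 had a higher estimate in alcohol than in control, beside 19 of the 40 genes tested. LMOD2, a leiomodin that lengthens thin filaments at their pointed ends, had 161 and 138 FPKM in control, 195 and 206 in alcohol, and 133 and 151 in the co-treated cells. The alcohol libraries were above the other 4, with a log2 fold change of 0.39 ± 0.13 against control (adjusted p = 0.278 by edgeR). In the co-treated cells it was -0.50 ± 0.13 against alcohol (adjusted p = 0.587). TMOD1, the tropomodulin that caps pointed ends, was at 75.8 to 77.3 FPKM in control and at 85.2 to 92.0 in the 4 exposed libraries, with no unadjusted p under 0.05. CAPZB, a subunit of the protein that caps barbed ends in the Z-disc, had 68.2 and 63.3 FPKM in control, 58.8 and 56.4 in alcohol, and 55.8 and 55.4 in the co-treated cells. All 4 exposed libraries were lower than both control libraries, and the log2 fold change in the co-treated cells was -0.29 ± 0.12 (adjusted p = 0.329). CAPZA2, its partner subunit, and NEB and LMOD3 did not reach an unadjusted p under 0.05.

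XIRP1, a Xin-repeat actin-binding protein of the intercalated disc, had 93.8 and 79.4 FPKM in control, 101 and 80.6 in alcohol, and 67.2 and 61.1 in the co-treated cells. Both co-treated libraries were below the other 4, with log2 fold changes of -0.49 ± 0.15 against control (adjusted p = 0.194) and -0.53 ± 0.15 against alcohol (adjusted p = 0.722) in edgeR. Its relative XIRP2 was at 0.68 to 1.63 FPKM, where the deposited length changed between libraries, with 5421 and 5104 bases in control, 7503 and 7695 in alcohol, and 5242 and 5780 in the co-treated cells. Its FPKM was lowest in alcohol, at 0.68 and 0.84, while its counts, 45 and 30 in control, 26 and 32 in alcohol, and 29 and 32 in the co-treated cells, overlapped. Length was the same in all libraries where it was given for 19 of the 41 genes, varied by under 5% for 18 and by 5% or more for 4.

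DES, the muscle intermediate filament protein desmin, had 377 and 327 FPKM in control, 372 and 269 in alcohol, and 309 and 303 in the co-treated cells. The groups of control and alcohol overlapped, and the log2 fold change in the co-treated cells was -0.25 ± 0.16 (adjusted p = 0.579 by edgeR). CMYA5, the desmin-binding protein myospryn, had 38.5 and 31.5 FPKM in control, 41.2 and 40.4 in alcohol, and 42.7 and 46.5 in the co-treated cells. All exposed libraries had a higher FPKM than both controls, but in CPM scaled by TMM alcohol replicate 2, at 512, was below control replicate 1, at 520. The log2 fold change in the co-treated cells was 0.30 ± 0.13 (adjusted p = 0.378 by edgeR).

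Among the chaperones and folding factors, edgeR called none in the co-treated cells against control, while DESeq2 called KLHL41 (adjusted p = 0.00855) and UNC45B (adjusted p = 0.0483). In edgeR 5 of the 6 had a lower estimate than in control and 1, KLHL41, a higher one, with a median of -0.08. Of the 40 genes tested 32 were lower, with a median of -0.20. UNC45B, a chaperone that folds myosin heads, had 114 and 104 FPKM in control, 101 and 76.3 in alcohol, and 77.2 and 78.1 in the co-treated cells. Every exposed library was below both control libraries, with -0.33 ± 0.15 in alcohol and -0.53 ± 0.15 in the co-treated cells (adjusted p 0.439 and 0.147 by edgeR). With alcohol replicate 1 left out the alcohol value was -0.58, and with replicate 2 left out it was -0.11. SMYD1, a muscle methyltransferase needed for myofibril assembly, had 310 and 286 FPKM in control, 331 and 302 in alcohol, and 291 and 324 in the co-treated cells, and its groups overlapped. CRYAB, the small heat shock protein alpha-B crystallin, had 626 and 539 in control, 650 and 439 in alcohol, and 486 and 625 in the co-treated cells. Its replicates spread over the range of all groups, and its span overlaps that of HSPB2, which had up to 877 counts. BAG3 (23.2 to 28.3 FPKM), a co-chaperone of filamin turnover, and SMYD2 (48.8 to 64.7) had no unadjusted p under 0.05.

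The muscle ubiquitin ligases TRIM63 and TRIM55 (MuRF1 and MuRF2), which bind titin near the M-band, were at 88.4 to 108 FPKM and at 57.9 to 79.0, and neither had an unadjusted p under 0.05. MYH14, a nonmuscle myosin heavy chain, had 1.50 and 1.33 FPKM in control, 1.53 and 1.81 in alcohol, and 1.13 and 0.95 in the co-treated cells. The co-treated libraries were the lowest, with -0.68 ± 0.27 against alcohol (adjusted p = 0.857).

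The LIM-only proteins FHL2 and FHL1 had estimates of opposite sign in the exposed cells. FHL2, which binds titin and many signalling proteins, had 275 and 236 FPKM in control, 365 and 313 in alcohol, and 416 and 441 in the co-treated cells. The 3 groups did not overlap, with control lowest and co-treated highest. The log2 fold change was 0.38 ± 0.14 in alcohol against control (adjusted p = 0.328), 0.33 ± 0.14 in the co-treated cells against alcohol (adjusted p = 0.882) and 0.70 ± 0.14 in the co-treated cells against control (adjusted p = 0.0506), all by edgeR. It passed the threshold against control in 6 of the 15 alternatives, with DESeq2 among them. FHL1, which binds titin at the I-band, had 339 and 256 FPKM in control, 292 and 193 in alcohol, and 236 and 240 in the co-treated cells, and its log2 fold change in the co-treated cells was -0.37 ± 0.20 (adjusted p = 0.463).

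**Figure D4:**
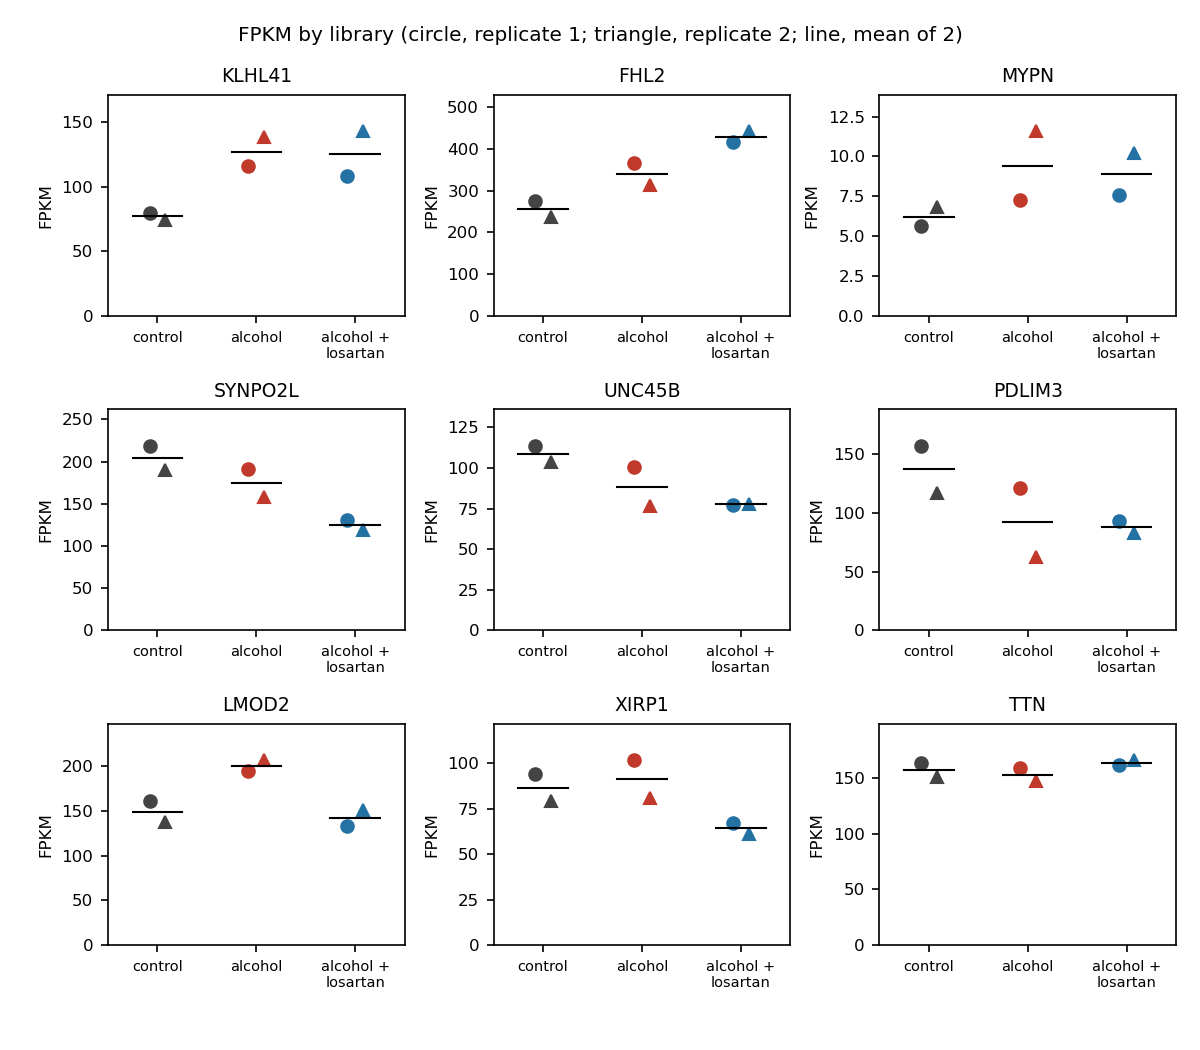
FPKM in each library (circle for replicate 1, triangle for replicate 2, line for the mean of 2) of 8 genes with small p-values and of TTN. All y axes start at 0. KLHL41 and FHL2 stand higher in every exposed library than in control, SYNPO2L is lowest in the co-treated cells at 131 and 119, LMOD2 is highest in alcohol, and TTN stays between 148 and 166.

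The FPKM of FHL2 divided by that of FHL1 was 0.811 and 0.925 in control, 1.25 and 1.62 in alcohol, and 1.77 and 1.84 in the co-treated cells. FHL1 was thus the more abundant transcript per length in both control libraries and FHL2 in all 4 exposed ones. MYOZ1 over MYOZ2 was 0.0842 and 0.0979 in control, 0.133 and 0.143 in alcohol, and 0.111 and 0.103 in the co-treated cells, again with no overlap between groups. TRIM55 over TRIM63 was 0.812 and 0.784 in control, 0.753 and 0.583 in alcohol, and 0.634 and 0.590 in the co-treated cells. SMYD2 over SMYD1 was 0.209 and 0.202 in control, 0.194 and 0.165 in alcohol, and 0.167 and 0.178 in the co-treated cells. For both of these pairs the control libraries were above the other 4. These ratios are a description with no test, since with 2 libraries against 2 the smallest p of an exact two-sided permutation test is 0.333. LMOD3 over LMOD2 overlapped between all groups, and the pairs with NEB, XIRP2, MYOM2 and MYOM3 rest on a gene under 2 FPKM.

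**Figure D5:**
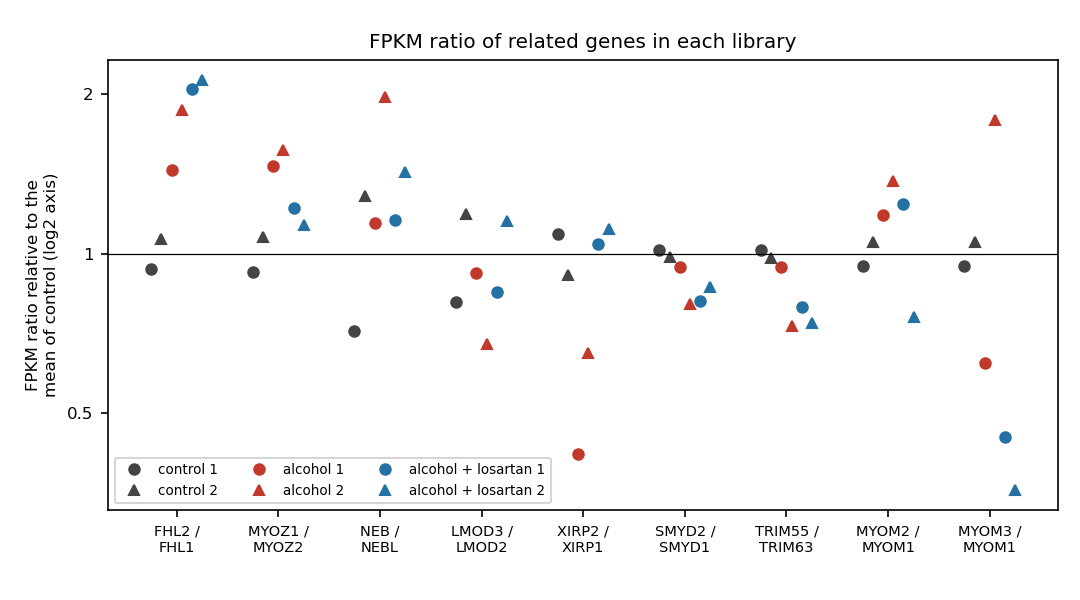
FPKM ratio of 9 pairs of related genes in each library, relative to the mean ratio of the control libraries (log2 axis). FHL2 over FHL1 lies above control in all 4 exposed libraries, and TRIM55 over TRIM63 lies below it in them. Of the pairs with a gene under 2 FPKM, XIRP2 over XIRP1 is lowest in both alcohol libraries. MYOM3 over MYOM1 is lowest in both co-treated libraries, and both pairs rest on a gene at a low level.

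A wider list of 60 sarcomere, costamere and turnover genes that are not among the 41 was read from the same fit. Of these 58 were listed and 53 were tested, and that edgeR fit called 0 in any comparison. At an unadjusted p under 0.05 there were 8 higher and 6 lower in alcohol against control, 0 higher and 3 lower in the co-treated cells against alcohol, 5 higher and 11 lower in the co-treated cells against control, and 8 higher and 12 lower in all exposed against control. These are 26.4%, 5.66%, 30.2% and 37.7% of the 53, against 11.0%, 5.55%, 12.6% and 13.5% of all genes tested. DESeq2 called 1 (LRRC10), 0, 1 (ACTN1) and 2 (both) in these comparisons, and limma 0 in each. With a block for replicate number, edgeR called ACTN1, ACTN4 and PDLIM7 in the co-treated cells against control, and these and LRRC10 in all exposed against control. With the groups compared alone it called ACTN1 and CSRP1 in the co-treated cells against control. With at least 10 counts in every library it called LRRC10 in all exposed. The calls also differed with the library left out. The median log2 fold change was -0.03, -0.12, -0.13 and -0.12, beside -0.03, -0.08, -0.20 and -0.13 for the 40 genes. The smallest p-values among higher genes in alcohol belonged to LRRC10, a heart leucine-rich repeat protein that binds actin, with 138 and 145 FPKM in control, 195 and 250 in alcohol and 197 and 191 in the co-treated cells, and a log2 fold change of 0.61 ± 0.13 (adjusted p = 0.108). FBXO40 (0.88 ± 0.22, adjusted p = 0.161) and FBXO32, the ligase atrogin-1 (0.56 ± 0.18, adjusted p = 0.250), followed. Among lower genes these were ACTN1, the nonmuscle alpha-actinin (-0.53 ± 0.16, adjusted p = 0.219), TMOD3, the widely expressed tropomodulin (-0.60 ± 0.19, adjusted p = 0.262), and HSP90AA1, a partner of UNC45B in myosin folding (-0.44 ± 0.15, adjusted p = 0.295), all by edgeR.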

How the data were processed

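RNA was sequenced from 6 libraries of H9-derived cardiomyocytes, grouped by the treatment in the labels. Per library, the files deposited by the authors give each gene an expected count (an estimate, 33.9% of which are not whole numbers), its FPKM and a length. A further table repeats the FPKM of all libraries, as made by the authors, with symbols. The submitters' processing notes name HISAT2 2.0.4, Bowtie2 2.2.5, RSEM 1.2.12 and hg38. Whether strand was used in counting is not given in the sources used here.

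Expected counts were rounded and tested with the quasi-likelihood F test of edgeR, two-sided, after TMM and filterByExpr. The 3 groups shared 1 fit, and p-values were adjusted by Benjamini-Hochberg over 14926 genes with a threshold of 0.05. The SE was derived from the F statistic. Non-overlap was read from TMM-scaled CPM. Replicates differed by more than sampling noise (chi-square per degree of freedom 4.46 to 7.31). Floors cover counting error only.

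The 41 genes, their roles and the other lists were chosen with earlier results of these data known. Values in every library are given for TTN, for the 10 genes highest in control and for each with an unadjusted p under 0.05 in any comparison. Related genes are named by the 3 smallest p-values in each direction in alcohol against control, and CAVIN4 was found there as MURC. The ratios of related genes, and the promoters shown, were chosen after the values were seen.

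The alternatives tried were DESeq2, limma on log2(FPKM + 1) and log2(FPKM + 0.1) with a mean FPKM of at least 0.5, RLE size factors, no filter, a minimum of 10 counts in every library, a block for replicate number, the groups compared alone, a loess correction for length (span 0.3) and leaving out each library. The fit was tested on simulated data. R 4.3.3, edgeR 4.0.16, limma 3.58.1 and DESeq2 1.42.0 were used. Promoters are those of RefSeq on GRCh38.p14, used for sequence and overlaps of genes.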

Additional observations from a re-analysis of the deposited data

How the results depend on the processing

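Under the alternatives, fold changes of single genes were followed only for TTN in alcohol against control and where edgeR's unadjusted p was under 0.05. None of these reversed. Since they were picked by a small p, a reversal was unlikely from the start, and the other genes were not followed. SYNPO2L in the co-treated cells against control was called in 8 of 15 alternatives (adjusted p 9.643e-05 to 0.361) and KLHL41 in all exposed against control in 6 of 14 (0.000669 to 0.256). The genes called in alcohol against control (10 as reported) were 74 with DESeq2, 1 with each limma fit, 2 with no filter, 26 with at least 10 counts in every library, 48 with the replicate block, 3 with the groups compared alone and 19 with the length correction. Those in the co-treated cells against alcohol (2) were 5 with DESeq2, 4 with limma on log2(FPKM + 0.1), 1 with no filter, 0 with at least 10 counts in every library, 5 with the replicate block and 4 with the groups compared alone. Those in the co-treated cells against control (54) were 116 with DESeq2, 1 and 3 with limma, 15 with no filter, 136 with the replicate block and 158 with the groups compared alone. Those in all exposed against control (83) were 151 with DESeq2, 0 and 1 with limma, 27 with no filter, 144 with at least 10 counts in every library and 256 with the replicate block. The number among the 41 genes was 1 with DESeq2 in alcohol against control. In the co-treated cells against control (1) it was 4 with DESeq2, 0 with each limma fit, 0 with no filter, 2 with at least 10 counts in every library, 3 with the replicate block and 5 with the groups compared alone. In all exposed against control (1) it was 3 with DESeq2, 0 with each limma fit, 0 with no filter and 4 with the replicate block. The causes were not tested.

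Leaving out 1 library at a time gave 1 to 220 genes called in alcohol against control, 1 to 24 in the co-treated cells against alcohol, 2 to 184 in the co-treated cells against control and 6 to 407 in all exposed against control. Among the 41 genes it gave 0 to 3, 0 to 0, 0 to 5 and 0 to 8. The median log2 fold change of the 40 genes tested ranged from -0.18 to 0.14 in alcohol against control, and from -0.28 to 0.034 in the co-treated cells against alcohol. In the co-treated cells against control it stayed negative, from -0.26 to -0.11.

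Replicate numbers were not taken as pairs, since the deviations of same-numbered libraries correlated across all genes tested with r = 0.11, -0.02 and 0.04. Over the 40 genes alone r was 0.53, 0.44 and 0.18. With the replicate block FHL2 and KLHL41 were called beside SYNPO2L in the co-treated cells against control, and FHL2, PDLIM3 and SYNPO2L beside KLHL41 in all exposed against control. Genes under about 20 counts, MYOM3 and ANKRD2 among them, are limited by depth.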
